A study of Mus musculus with 2 samples.

Results

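Flow cytometry took cells with the red fluorescent protein mCherry out of mouse tumours, and 51 of them carried RNA of the T cell receptor complex together with RNA of Trdc, the constant region of the receptor's delta chain, or of Il17a, the cytokine interleukin 17A. They are named Trdc/Il17a T cells here after the genes that chose them. A cell was taken if it had at least 200 genes, at most 10% mitochondrial UMIs, fewer than 5 UMIs of the mCherry construct, at least 1 UMI of Cd3d, Cd3e or Cd3g, none of Cd8a or Cd8b1, and at least 1 UMI of Trdc or Il17a. A UMI is a unique molecular identifier, the tag that marks 1 captured RNA molecule. The 51 cells were found among 11895 cells that passed the filters on genes, mitochondrial UMIs and mCherry, out of 13837 in all. The adult library gave 44 of 5271 such cells and the young library gave 7 of 6624. They were set against the other T cells, which are the remaining cells with at least 2 CD3 UMIs: 79 in the adult library and 56 in the young one, of which 29 adult and 36 young cells had a Cd8a or Cd8b1 UMI.

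The adult library came from tumours of mice aged 24 weeks and the young library from tumours of mice aged 4 weeks, and each carries the label d7. Cells were sorted from pooled tumours, polyadenylated RNA was captured with the 10x Genomics 3' v2 kit, and the series' title places the ages in a question about antigen cross-presentation and CD8 T cells. The labels used here give neither the tumour, nor the number of mice, nor which cells carried the mCherry gene. The T cells had few mCherry UMIs by the rule itself, and 12 adult and 0 young Trdc/Il17a T cells held any mCherry_construct UMI. In the adult library 32 of 44 Trdc/Il17a T cells held none, against 104 of 123 T cells of both groups together. In the young library these were 7 of 7 and 57 of 63. The libraries held 70988070 UMIs in adult and 84862471 in young, and shared 111 barcodes, none of them of a Trdc/Il17a T cell. Median depth was 4012 and 4191 UMIs in adult and young Trdc/Il17a T cells, against 5224 and 9468 in other T cells. Each age has a single library and so no replicate, and ages are set side by side with intervals that cover counting error only.

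Gamma delta T cells carry a receptor of a gamma and a delta chain in place of the alpha and beta chains of CD4 and CD8 T cells. In mice a part of them leaves the thymus already set to make interleukin 17 and settles in barrier tissues. In tumours such cells are known as an early source of interleukin 17A, which acts on stromal and myeloid cells.

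Promoter sequence is shown for the cytokine gene that helped choose the cells and for a pair of neighbouring genes whose RNA was higher in them. Il17a lies on chromosome 1 (20730905 to 20734496, plus strand), and Tmem176a and Tmem176b lie head to head on chromosome 6 (48840919 to 48847071 on the plus strand and 48833818 to 48841496 on the minus strand), so that their first parts overlap. The windows are RefSeq's on GRCm38.p6, each from 250 bases before a gene's first listed start to 50 after it, 5′ to 3′ along the gene. In Il17a (chr1:20730655-20730954, plus strand) the capitals mark the only match to AGGTCA, a hexamer to which nuclear receptors bind, read on either strand. It starts 120 bases before the start of transcription and lies on the strand opposite to the gene. In Tmem176a (chr6:48841233-48841532, plus strand) and Tmem176b (chr6:48841088-48841387, minus strand) the capitals mark the 155 bases that both windows hold, on opposite strands.
Il17a: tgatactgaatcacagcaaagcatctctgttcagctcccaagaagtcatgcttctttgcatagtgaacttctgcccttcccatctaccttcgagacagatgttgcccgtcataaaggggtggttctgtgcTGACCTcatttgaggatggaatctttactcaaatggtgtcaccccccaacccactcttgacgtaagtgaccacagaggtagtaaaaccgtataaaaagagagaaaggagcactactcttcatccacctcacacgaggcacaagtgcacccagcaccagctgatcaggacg
Tmem176a: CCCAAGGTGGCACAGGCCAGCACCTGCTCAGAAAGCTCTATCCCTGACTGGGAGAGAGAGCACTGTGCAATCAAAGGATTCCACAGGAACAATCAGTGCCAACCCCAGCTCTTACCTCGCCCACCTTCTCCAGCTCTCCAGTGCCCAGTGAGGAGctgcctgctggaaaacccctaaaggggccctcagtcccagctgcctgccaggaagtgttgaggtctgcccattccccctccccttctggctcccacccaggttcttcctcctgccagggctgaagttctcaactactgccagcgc
Tmem176b: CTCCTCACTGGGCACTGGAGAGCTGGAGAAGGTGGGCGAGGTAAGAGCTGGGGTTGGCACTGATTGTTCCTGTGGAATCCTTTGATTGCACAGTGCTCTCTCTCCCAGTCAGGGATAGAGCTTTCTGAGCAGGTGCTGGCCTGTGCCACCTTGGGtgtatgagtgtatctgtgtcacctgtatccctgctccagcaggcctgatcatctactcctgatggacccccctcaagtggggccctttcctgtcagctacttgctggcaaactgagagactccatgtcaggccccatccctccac
The hexamer was absent from the windows of Tmem176a and Tmem176b. It was present in 5340 of all 32851 promoter windows (16.3%), so a match is given as a description of the sequence only. Of the genes called below, 2 of 7 higher and 2 of 9 lower genes with a window held it.

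The cells were chosen on Trdc and Il17a, and these values are therefore a description with no test. In the adult library 27 cells held both RNAs, 15 held Trdc alone and 2 held Il17a alone. In the young library 1 cell held both, 6 held Trdc alone and none held Il17a alone. Trdc UMIs per cell ran from 0 to 76 with a median of 12.5 in the 44 adult cells, and from 1 to 13 with a median of 3 in the 7 young cells. Adult and young cells overlapped in Trdc, and the high counts were in adult cells. Il17a UMIs per cell ran from 0 to 84 with a median of 2 in adult cells, against 0 in 6 young cells and 28 in the seventh. Summed over cells, Il17a stood at 1354 CPM (UMIs of the gene per 1000000 UMIs of the group; exact Poisson 95% interval 1208 to 1512) in adult cells and at 449 CPM in young cells, where 1 cell held all 28 UMIs. Trdc stood at 3260 CPM (3032 to 3501) in adult cells and 641 CPM in young cells. The other T cells held Trdc too, with 32 UMIs in 6 of 79 adult and 75 UMIs in 15 of 56 young cells. All of these had a CD8 UMI, which kept them out of the Trdc/Il17a T cells. Among cells with no CD3 UMI, 0.672% of adult and 0.0923% of young cells had a Trdc UMI, and 0.277% and 0% had an Il17a UMI, at median depths of 9355 and 9628 UMIs. Among cells with 5 or more CD3 UMIs, Trdc was present in 41.0% of adult and 35.2% of young cells, and Il17a in 23.8% and 1.85%.

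**Figure D1:**
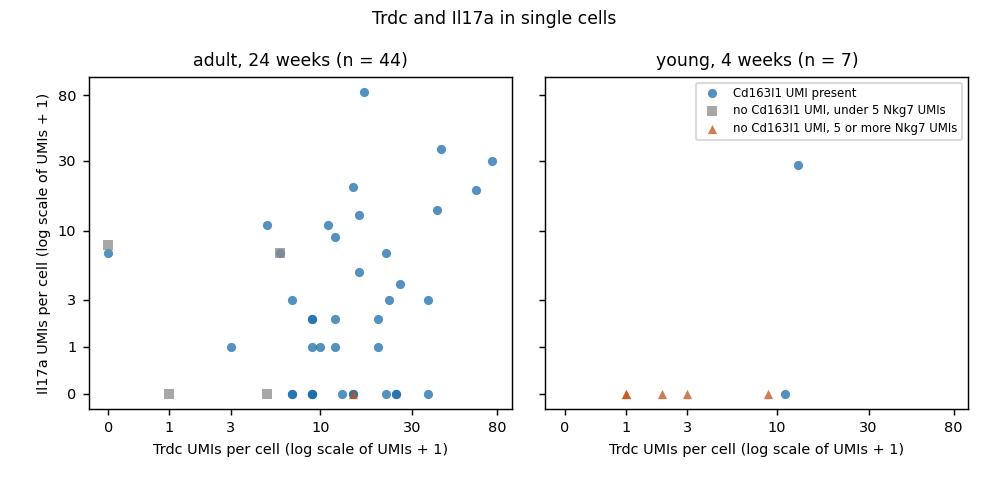
Each point is 1 Trdc/Il17a T cell, with its Trdc UMIs on the x axis and its Il17a UMIs on the y axis, both on a log scale of UMIs + 1; colours and shapes give Cd163l1 and Nkg7. Of the adult cells (left), 29 held Il17a and 39 held Cd163l1, while 5 of the 7 young cells (right) held no Cd163l1 and at least 5 Nkg7 UMIs.

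The Trdc/Il17a T cells made up 35.8% of adult T cells (44 of 123; Clopper-Pearson 95% interval 27.3 to 44.9%) and 11.1% of young T cells (7 of 63; 4.59 to 21.6%). The adult share was 3.22 times the young share (95% interval 1.54 to 6.73). This ratio depends on the CD8 limit of the rule. Trdc or Il17a was also held by 7 adult and 15 young T cells with a CD8 UMI, which were counted as other T cells. Among cells with 5 or more CD3 UMIs, with or without CD8, Trdc was present in 41.0% of adult and 35.2% of young cells. Of all cells that passed the filters they were 0.835% (0.607 to 1.12%) in the adult library and 0.106% (0.0425 to 0.218%) in the young library. Among T cells without CD8 UMIs alone, the share was 46.8% in the adult library and 25.9% in the young library, a ratio of 1.81 whose interval (0.921 to 3.54) includes 1. Counting Il17a-positive cells only, the ratio was 15.3 (2.14 to 109), from 29 adult cells and 1 young cell. The share of Il17a-positive cells within the Trdc/Il17a T cells was 65.9% (50.1 to 79.5%) in adult and 14.3% (0.361 to 57.9%) in young. Age and pool cannot be told apart here, and the sort sets which T cells entered each library.

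The label of gamma delta and interleukin 17 T cells was checked on genes the rule did not use. These genes were chosen with earlier results of these data known, and Tmem176a and Tmem176b were given as markers with the label. In the adult library the label was met by nearly all cells: 38 of 44 held RNA of a gamma chain constant region, 39 held Cd163l1 and 42 held Cd163l1, Tmem176a or Tmem176b. The young library met it only in part. Of its 7 cells, 4 held a gamma constant region, against 1 of 56 young other T cells, and 3 held none. Cd163l1 was held by 2 of the 7. At least 5 UMIs of Nkg7, a granule protein gene of cytotoxic lymphocytes, with no Cd163l1, were held by 5. The 2 largest young cells, of 27005 and 19006 UMIs, supplied 73.8% of all UMIs of the young cells and held 140 and 517 UMIs of Gzma, the granzyme A gene, with 2 CD3 UMIs each and 1 and 2 Trdc UMIs. The natural killer cell marker list stood at 1155 CPM in young Trdc/Il17a T cells against 16.6 CPM in young other T cells, with 6 of its 7 genes detected and Klra8 at 0. In the adult library it stood at 8.62 CPM against 40.9 CPM, with Ncr1, Klrb1c, Klre1, Klra8 and Eomes at 0. The young sum is therefore described as cells chosen by their Trdc and Il17a UMIs, and the name gamma delta 17 cell is carried in it by 2 cells.

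**Figure D2:**
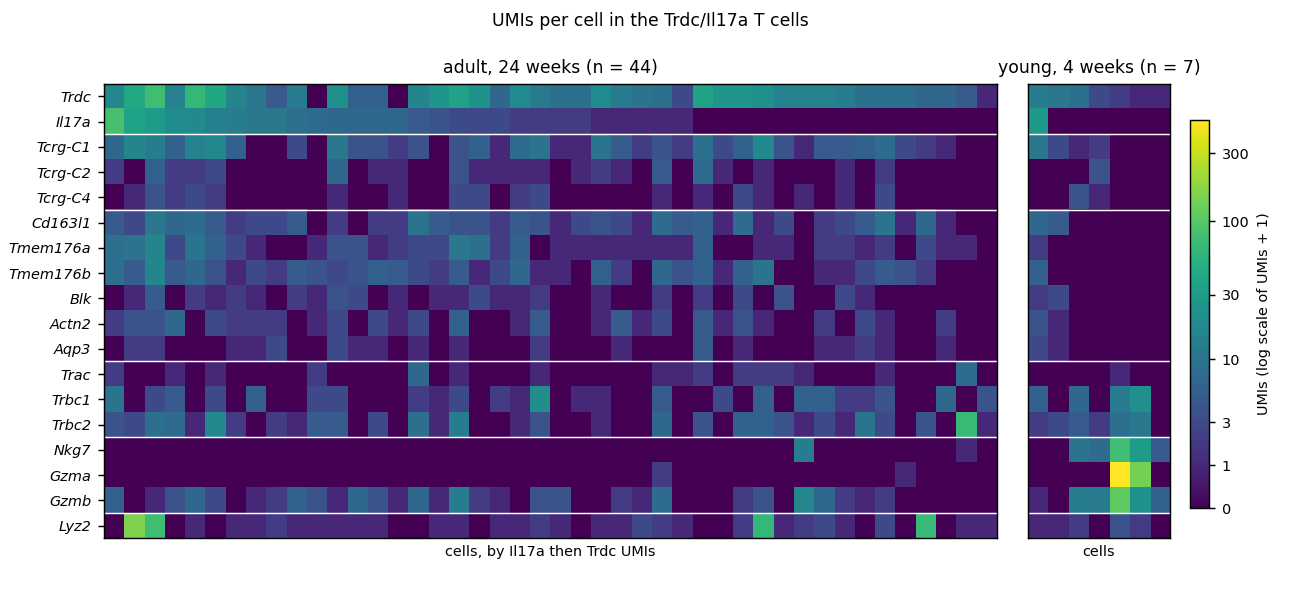
Each column is 1 Trdc/Il17a T cell, 44 adult cells on the left and 7 young cells on the right, ordered by Il17a and then Trdc UMIs; rows are genes and colour gives UMIs per cell on a log scale of UMIs + 1. Gamma chain constant regions, Cd163l1, Tmem176a and Tmem176b run through most adult cells, Cd163l1 appears in 2 of 7 young cells, and Nkg7 and Gzma reach 76 and 517 UMIs in 1 young cell.

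Across all genes, UMIs were summed over Trdc/Il17a T cells and over other T cells in each library, which gave 231917 UMIs against 611017 in the adult library and 62359 against 664113 in the young one. An edgeR quasi-likelihood test with a library term, on 7066 genes that the rule did not use, called 14 genes higher and 11 lower at an adjusted p under 0.05, which is 0.198% and 0.156% of the genes tested. In all, 257 genes had an unadjusted p under 0.05. Only 1 residual degree of freedom stands behind this fit, and leaving out the 2 adult cells with a single CD3 UMI gave 22 genes higher and 33 lower. With DESeq2 in place of edgeR, 4 genes were higher (Tcrg-C1, Tmem176b, Abi3bp and Actn2) and 2 lower (Ccl3 and Tnfrsf4). Apart from these, the genes described as called below, Cd163l1 among them, passed with edgeR and not with DESeq2. With cells chosen by Il17a alone, Actn2, Tmem176a, Ly6g5b, Krt83 and all 11 lower genes were among those no longer called by edgeR.

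Receptor genes were the first group. Tcrg-C1, Tcrg-C2 and Tcrg-C4 encode constant regions of the gamma chain on chromosome 13, and all 3 were called higher, out of 4 gamma delta receptor genes that could be tested. Tcrg-C1 had 233 UMIs in 38 of 44 adult Trdc/Il17a T cells against 0 UMIs in 79 other T cells, and 17 UMIs in 4 of 7 young Trdc/Il17a T cells against 3 UMIs in 1 of 56 other T cells. That is 1005 against 0 CPM in the adult library, at least 205-fold higher when 3 counts are put for the 0, and 273 against 4.52 CPM in the young library. The fitted log2 fold change was 7.64 ± 0.94 (SE; edgeR adjusted p = 2.5e-04). Tcrg-C2 had 54 UMIs in 22 adult cells against 0, and 4 UMIs in 1 young cell against 0 (edgeR adjusted p = 3.6e-04). Tcrg-C4 had 36 UMIs in 18 adult cells against 3 UMIs in 2 cells, and 5 UMIs in 2 young cells against 0 (edgeR adjusted p = 0.00258). A gamma constant UMI was held by 38 of 44 adult Trdc/Il17a T cells against 2 of 79 other T cells, and by 4 of 7 young ones against 1 of 56, so the groups overlapped at 0. Tcrg-C1 and Tcrg-C2 are close copies, so how reads were split between them is uncertain, and Tcrg-C3 had 0 UMIs in every group.

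Variable segments were rarely seen. Trdv4, a delta chain variable segment, had 18 UMIs in 12 adult Trdc/Il17a T cells against 1 UMI in 79 adult other T cells, and 0 UMIs in young Trdc/Il17a T cells against 1 UMI in young other T cells (log2 fold change 4.37 ± 1.16 SE, edgeR adjusted p = 0.170). It was called higher in 6 of 12 other settings. Of the gamma variable segments, Tcrg-V6 had 1 UMI in each of 2 adult cells and 1 young cell, Tcrg-V4 had 1 UMI in 1 young cell, and Trgv2 had 5 UMIs in 4 adult cells. None of these 3, chosen after their values were seen, had a UMI in the other T cells. Tcrg-V1 had none in any group.

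Genes of the alpha and beta chains were still present. Trac, the alpha constant region, stood at 151 CPM against 591 CPM in the adult library and 16 against 423 CPM in the young library, in 16 of 44 adult and 1 of 7 young Trdc/Il17a T cells (log2 fold change -2.77 ± 0.66 SE, edgeR adjusted p = 0.0911). It lay on the lower side in both libraries. Trbc1 and Trbc2, near-identical beta constant regions, were closer: Trbc2 stood at 897 against 1191 CPM in the adult library and 513 against 867 CPM in the young one, and Trbc1 at 474 against 781 CPM and 754 against 664 CPM. Cd4 had 3 UMIs in 1 adult Trdc/Il17a T cell against 76 UMIs in 29 other T cells (edgeR adjusted p = 0.164). That adult cell also held 8 Trac and 68 Trbc2 UMIs, 5 Trdc UMIs and no gamma constant UMI. None of the 4 tested genes of this list was called in the fit described above. Trac was called lower in 11 and Cd4 in 6 of 15 other settings, Trac with an adjusted p of 2.23e-05 to 1.0 over them by edgeR or DESeq2. The list's median log2 fold change was -1.69, against -0.13 over all genes.

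The type 17 programme held 6 of the 14 genes called higher, out of 24 of its genes tested, and none called lower. The list was chosen with earlier results of these data known, so this count is a description and no test of the programme. Cd163l1 on chromosome 7 encodes a scavenger receptor of the SCART family known from mouse gamma delta T cells. It had 165 UMIs in 39 adult Trdc/Il17a T cells against 0 in 79 adult other T cells, and 12 UMIs in 2 young Trdc/Il17a T cells against 0 in 56 young other T cells. Counts per adult cell ran from 0 to 11 with a median of 3. In CPM these are 711 (607 to 829) against 0 (0 to 6.04), at least 145-fold higher, and 192 against 0, with a fitted log2 fold change of 10.39 ± 1.02 (SE; edgeR adjusted p = 2.0e-05). In adult cells without a CD3 UMI, 0.237% had a Cd163l1 UMI. After each cell was thinned to 2000 UMIs, 73.5% of 34 adult Trdc/Il17a T cells still held Cd163l1 against 0 of 69 adult other T cells (exact intervals 55.6 to 87.1% and 0 to 5.21%).

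Tmem176b and Tmem176a, the pair whose promoter windows are printed above, encode related membrane proteins. Tmem176b had 160 UMIs in 37 adult Trdc/Il17a T cells against 7 UMIs in 4 other T cells, or 690 against 11.5 CPM, a ratio of 60.2 (28.6 to 152). In the young library it had 6 UMIs, all in 1 cell, against 0. Tmem176a had 131 UMIs in 36 adult cells against 13 UMIs in 6, or 565 against 21.3 CPM, a ratio of 26.5 (15 to 51.2), and 2 UMIs in 1 young cell against 1 UMI in 1 cell. Both were called (log2 fold change 6.17 ± 0.79 and 4.58 ± 0.76 SE, edgeR adjusted p = 3.1e-04 and 0.00352). Of adult cells without a CD3 UMI, 6.62% had a Tmem176b UMI and 5.43% a Tmem176a UMI. After thinning to 2000 UMIs these shares were 2.02% and 1.85%, where adult Trdc/Il17a T cells had 70.6% and 61.8%. The summed levels of both genes lay above those of the other T cells in both libraries, in the young library through 1 of 7 cells.

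Blk, Aqp3 and Actn2 complete the group. Blk, a Src-family kinase known from B cells and needed by interleukin 17-producing gamma delta T cells of the mouse, had 48 UMIs in 24 adult cells against 0 in other T cells and 5 UMIs in 2 young cells against 0 (at least 42.2-fold higher in adult; edgeR adjusted p = 3.6e-04). Aqp3, a channel for water and glycerol, stood at 134 against 1.64 CPM in the adult library and 64.1 against 0 CPM in the young one (edgeR adjusted p = 0.00252). Actn2, an actin-binding alpha-actinin best known from muscle, stood at 336 against 16.4 CPM and 80.2 against 0 CPM, with 78 UMIs spread over 28 adult cells and none over 7 in a cell (edgeR adjusted p = 0.00349). In the young library the UMIs of Blk, Aqp3 and Actn2 came from 2 of 7 cells each.

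Other members of the type 17 programme were low in number or did not pass the test. Zbtb16, the gene of the innate-like T cell factor PLZF, had 16 UMIs in 13 adult cells against 0 (edgeR adjusted p = 0.0531). Ramp1, part of the receptor for the neuropeptide CGRP, stood at 302 against 27.8 CPM in the adult library (edgeR adjusted p = 0.110). In other settings Zbtb16 was called higher in 8 of 11 and Ramp1 in 11 of 15. Below the count minimum of the test, Il17f had 12 UMIs in 2 adult cells, Il1r1 11 UMIs in 10, Il17re 9 UMIs in 7, Sox13 8 UMIs in 6 and Il23r 2 UMIs in 2, each against 0 in adult other T cells. Ccr6 and Il22 had 0 UMIs in adult Trdc/Il17a T cells, which allows up to 12.9 CPM. These 9 genes were chosen after their values were seen. The chemokine receptor Cxcr6 stood at 651 against 254 CPM in adult but 80.2 against 232 CPM in young, and Ccr2 at 371 against 227 CPM and 192 against 151 CPM, with neither called. Lgals3, the galectin 3 gene, stood at 1199 against 1399 CPM and 433 against 2343 CPM (edgeR adjusted p = 1.0). The list's median log2 fold change was 0.70 with 18 of 24 above 0, also with 4 genes at 0 in other T cells set to their bounds. Over all genes tested, 2955 of 7066 lay above 0.

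Genes called higher outside these lists included Abi3bp, Krt83, Ly6g5b and Klrb1c, of which Krt83 and Ly6g5b were chosen after their values were seen. Abi3bp, an extracellular matrix protein gene, stood at 73.3 against 0 CPM in the adult library and 64.1 against 0 CPM in the young one. Krt83, a hair keratin gene, had 38 UMIs in 19 adult cells against 17 UMIs in 9, and 11 UMIs in 2 young cells against 0. Ly6g5b had 55 UMIs in 27 adult cells against 6 UMIs in 6 and no UMI in any young T cell. Their edgeR adjusted p values were 0.00584 for Abi3bp, 0.0476 for Krt83 and 0.0333 for Ly6g5b. Klrb1c, which encodes the natural killer receptor NK1.1, rested on the young library: 18 UMIs in 4 of 7 young cells, 12 of them in the largest, against 2 UMIs in 2 young other T cells, while the adult library had 0 against 1 UMI (edgeR adjusted p = 0.0333).

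**Figure D3:**
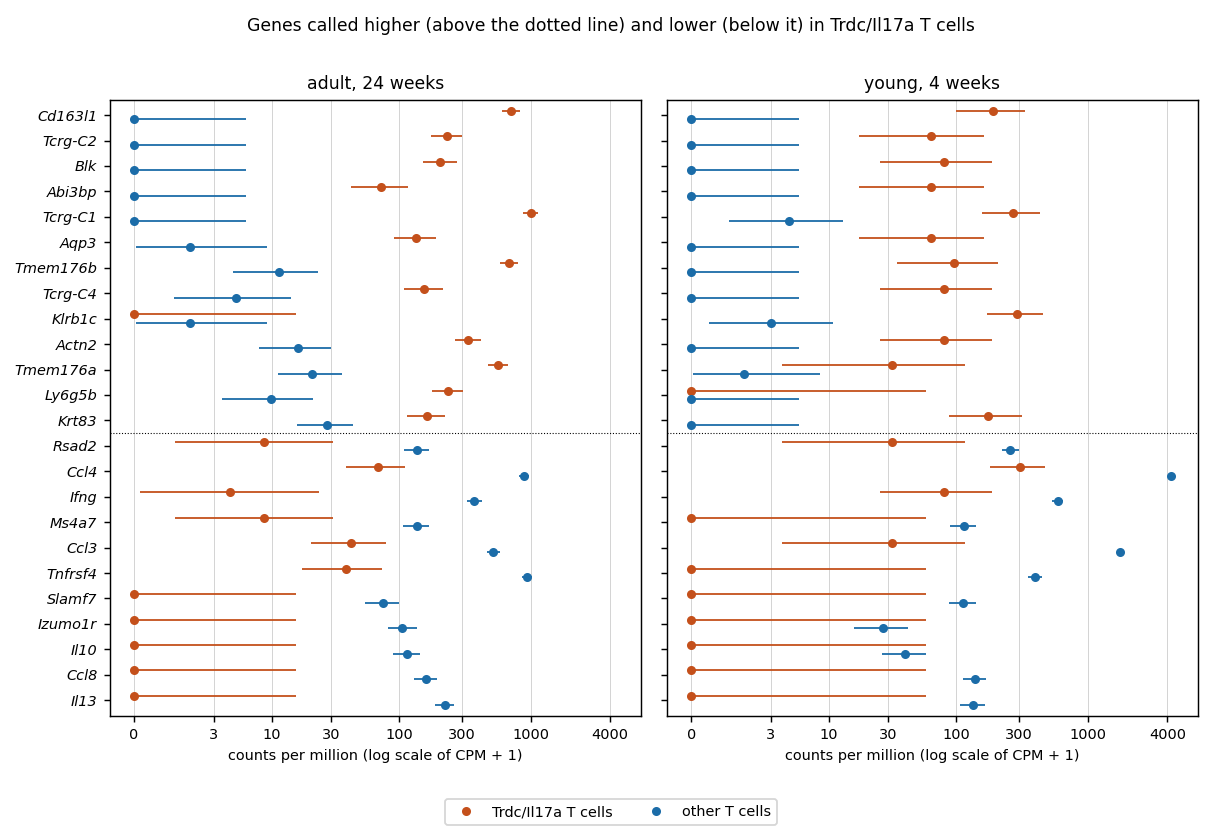
Levels of 13 of the 14 genes called higher and the 11 called lower, in CPM on a log scale of CPM + 1, with exact Poisson 95% intervals as lines; the adult library is on the left, the young one on the right. Cd163l1 stood at 711 against 0 CPM in adult and 192 against 0 CPM in young, and the intervals are wider in young, where 7 cells make the sum.

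Of 23 genes tested in the type 1 and cytotoxic list, Ifng and Ccl4 were called lower and none higher, with a median log2 fold change of -1.06. Ifng, encoding interferon gamma, had 1 UMI in 44 adult Trdc/Il17a T cells against 229 UMIs in 29 of 79 other T cells, or 4.31 against 375 CPM, and 5 UMIs in 3 of 7 young cells against 393 UMIs in 25 of 56, or 80.2 against 592 CPM (log2 fold change -4.26 ± 0.77 SE, edgeR adjusted p = 0.00785). Ccl4, a chemokine of activated lymphocytes and macrophages, stood at 69.0 against 890 CPM in adult and 305 against 4294 CPM in young (edgeR adjusted p = 0.00487). Ccl3, a related chemokine, stood at 43.1 against 520 CPM and 32.1 against 1768 CPM (edgeR adjusted p = 0.00258). These 3 were lower in both libraries. Because the rule removed CD8 cells from the Trdc/Il17a T cells but not from the other T cells, the test was also run against other T cells without CD8 UMIs, where Ifng, Ccl4 and Ccl3 were no longer called and the other 8 lower genes and all 14 higher genes still were.

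Granule genes split by library. Nkg7 stood at 60.4 against 1205 CPM in adult, with 13 of its 14 UMIs in 1 cell, but at 2085 against 1804 CPM in young. Gzmb, granzyme B, stood at 539 against 2851 CPM in adult and 2662 against 2095 CPM in young. It was present in 30 of 44 adult cells, at a median of 1.5 UMIs. Gzma stood at 12.9 against 345 CPM in adult and 10536 against 259 CPM in young, where 517 of 657 UMIs were in 1 cell. Klrd1, the CD94 receptor gene and chosen after its values were seen, stood at 12.9 against 205 CPM and 1187 against 473 CPM. None of these 4 was called, but Gzmb and Nkg7 were called lower in 2 and Gzma and Klrd1 in 1 of 15 other settings, among them the one limited to cells of at most 10000 UMIs.

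In the regulatory list 3 of 12 tested genes were called lower (Tnfrsf4, Il10 and Izumo1r) and 0 higher, and in the type 2 list 1 of 6 (Il13) was called lower. Tnfrsf4, encoding the costimulatory receptor OX40, had 9 UMIs, all in 1 adult cell, against 575 UMIs in 44 adult other T cells, or 38.8 against 941 CPM, and 0 against 399 CPM in young (log2 fold change -5.03 ± 0.76 SE, edgeR adjusted p = 0.00188). Il10 and Izumo1r, the folate receptor 4 gene of regulatory T cells, had no UMI in either library's Trdc/Il17a T cells. In other T cells Il10 stood at 115 CPM in adult and 40.7 CPM in young, and Izumo1r at 106 and 27.1 CPM, which makes them at least 8.86-fold and at least 8.22-fold lower in adult Trdc/Il17a T cells (edgeR adjusted p = 0.0333 and 0.0476). In young Trdc/Il17a T cells 3 counts amount to 48.1 CPM, above both young levels, so the young zeros set no bound. Foxp3, the defining factor of regulatory T cells and chosen after its values were seen, was at 0 in Trdc/Il17a T cells of both libraries, against 38 UMIs in 16 adult and 26 UMIs in 10 young other T cells (edgeR adjusted p = 0.110). Ctla4 stood at 99.2 against 447 CPM and 48.1 against 360 CPM, Tnfrsf18 at 38.8 against 723 CPM and 112 against 385 CPM, and Tnfrsf9 at 229 against 1038 CPM and 561 against 730 CPM, none of them called here. In 15 other settings Ctla4 and Tnfrsf18 were called lower in 11 each and Tnfrsf9 in 2. Tnfrsf18 was chosen after its values were seen. The regulatory list's median log2 fold change was -2.78, or -1.79 with 4 genes at their bounds. Il13, a type 2 cytokine gene, had no UMI in Trdc/Il17a T cells, against 136 UMIs in 6 adult and 89 UMIs in 2 young other T cells (edgeR adjusted p = 0.00258), so its call rests on 8 cells.

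Of the remaining lower genes, Ms4a7 and Ccl8 are known from macrophages, Rsad2 is induced by interferon and Slamf7 is a surface receptor of cytotoxic lymphocytes and macrophages. Ccl8 had no UMI in Trdc/Il17a T cells, against 98 UMIs in 3 adult and 92 UMIs in 5 young other T cells. Ms4a7 stood at 8.62 against 136 CPM and 0 against 114 CPM, Rsad2 at 8.62 against 137 CPM and 32.1 against 259 CPM, and Slamf7 at 0 against 75.3 CPM and 0 against 113 CPM (edgeR adjusted p = 0.0366, 0.0364 and 0.0295; 0.00442 for Ccl8). The macrophage and monocyte marker list moved with them: its 14 genes summed to 6166 CPM in adult Trdc/Il17a T cells against 8551 CPM in adult other T cells, and to 2919 against 11262 CPM in young, with 5 of the 14, among them C1qa, Csf1r, Adgre1 and Ms4a7, at 0 in young Trdc/Il17a T cells. Per 10000 UMIs of a cell, the list ran from 0 to 222 with a median of 16.1 in adult Trdc/Il17a T cells and from 3.11 to 345 with a median of 18.9 in adult other T cells. In young cells the medians were 38.3 and 43.0, so the medians lay closer than the sums. Without cells above 0.3% myeloid UMIs, Rsad2 was no longer called, and Ms4a7, Ccl8 and Il13 had too few UMIs to be tested, while all 14 higher genes were still called.

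Receptor signalling genes were measured in both groups. Lat stood at 910 against 522 CPM in adult and 144 against 370 CPM in young, and Cd247, the zeta chain gene, at 427 against 177 CPM and 112 against 122 CPM. Cd2 and Cd6, coreceptors of T cell activation, and Lck, the kinase that starts signalling from CD4 and CD8, were chosen after their values were seen. Cd2 stood at 99.2 against 735 CPM in adult and 144 against 635 CPM in young (edgeR adjusted p = 0.0704). Cd6 stood at 17.2 against 193 CPM and 0 against 84.3 CPM (edgeR adjusted p = 0.0558), and Lck at 38.8 against 327 CPM and 176 against 188 CPM (edgeR adjusted p = 1.0). None of the list's 12 tested genes was called here, but Cd2 was called lower in 11, Cd6 in 10 and Lck in 1 of 15 other settings. The list's median log2 fold change was -0.64.

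Of 19 tested genes of secreted factors, 5 were lower (Il10, Ifng, Il13, Ccl3 and Ccl4) and 0 were higher. Ltb, lymphotoxin beta, stood at 1401 against 520 CPM in adult but 128 against 372 CPM in young. Tnf, chosen after its values were seen, stood at 345 against 101 CPM in adult and 64.1 against 251 CPM in young. Coinhibitory receptors had 0 of 9 tested genes called in the same fit. Lag3, chosen after its values were seen, had no UMI in adult Trdc/Il17a T cells against 124 UMIs in 26 adult other T cells, at least 15.7-fold lower, and stood at 96.2 against 399 CPM in young (edgeR adjusted p = 0.0784). Lag3 was called lower in 11 of 15 other settings.

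Residency and activation genes were not called here in any of 17 tests, and their median log2 fold change was 0.10. Cd69, an early activation and retention marker, stood at 694 against 247 CPM and 257 against 140 CPM, above the other T cells in both libraries. Cd44 stood at 526 against 188 CPM in adult and 96.2 against 224 CPM in young. Itgae, the CD103 integrin gene and chosen after its values were seen, stood at 194 against 32.7 CPM and 48.1 against 9.03 CPM (edgeR adjusted p = 0.191). In 15 other settings Itgae was called higher in 2, and Tnfrsf18, which is on this list too, was called lower in 11. Maf, a transcription factor of the type 17 programme and also chosen after its values were seen, stood at 332 against 131 CPM in adult and 16 against 105 CPM in young.

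The division, interferon and housekeeping lists held 1 called gene, Rsad2. For comparison, 2955 of all 7066 genes tested had a log2 fold change above 0. Of 20 DNA replication and mitosis genes none was called and 14 had a log2 fold change above 0, with Top2a at 103 against 36.0 CPM and 257 against 37.6 CPM and Ube2c at 116 against 39.3 CPM and 305 against 70.8 CPM. In the adult library these 24 Top2a and 27 Ube2c UMIs came from 8 cells each. Top2a was called higher in 1 of 14 other settings and Ube2c in 0 of 15. Of 26 interferon-stimulated genes only Rsad2 was called, and 3 had a log2 fold change above 0. Ifi27l2a stood at 828 against 1939 CPM in adult and 96.2 against 2742 CPM in young, and Isg15 at 379 against 535 CPM and 192 against 849 CPM. Ifi27l2a was called lower in 8 of 15 other settings, and Isg15 in 0. None of 20 immediate early and heat shock genes was called, with Nfkbia at 3117 against 1386 CPM and 1123 against 2129 CPM, and none of 15 glycolysis genes, with Gapdh at 2928 against 3466 CPM and 1652 against 3709 CPM. The lists of naive and recirculating T cells (9 tested, median -0.43), chemokine and cytokine receptors (26 tested, median -0.55) and lipid handling (11 tested, median -0.41) also had no call here. Gapdh was called lower in 1 of 15 other settings and Nfkbia in 0.

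**Figure D4:**
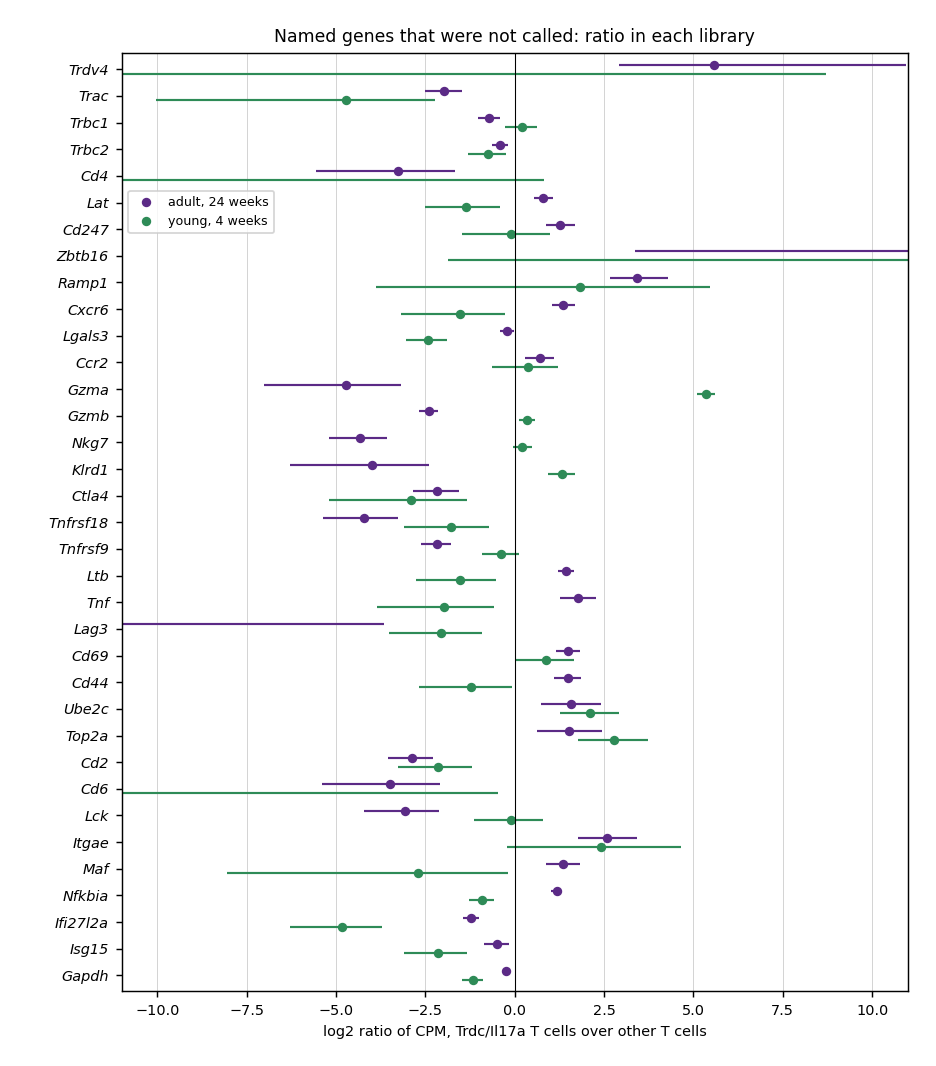
Log2 ratio of CPM, Trdc/Il17a T cells over other T cells, for the named genes that were not called, in the adult library (purple) and the young library (green); lines are 95% intervals for counting error, a line to the edge has no bound on that side, and a gene at 0 in either group has no point. Trac, Ctla4, Tnfrsf18 and Cd2 lie left of 0 in both libraries, while Gzma, Gzmb and Klrd1 lie left of 0 in adult and right of 0 in young.

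Within the adult Trdc/Il17a T cells, those with Il17a were set beside those without it, as a description since Il17a chose cells. Cd163l1 was present in 27 of 29 cells with Il17a and in 12 of 15 without it, at 861 and 500 CPM. Tcrg-C1 stood at 1192 and 739 CPM, Tmem176b at 890 and 406 CPM, and Tmem176a at 817 and 208 CPM. Median depth was 4001 and 4274 UMIs. All 4 genes were thus present on both sides, at higher summed levels in cells with Il17a. In the adult library, 4 of the 44 cells had over 0.3% of UMIs in 7 myeloid genes, with 64 to 154 Lyz2 UMIs and 16428 to 23622 UMIs in all.

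Cells just outside each limit of the rule were as follows. With no CD3 UMI, 47 adult and 6 young cells without CD8 UMIs held Trdc or Il17a. The adult ones had 39 Trdc and 14 Il17a UMIs in all, Cd163l1 in 1 cell, no Tcrg-C1 UMI and a median of 25 Lyz2 UMIs. Just inside, the 2 adult cells with 1 CD3 UMI both held Tcrg-C1, Tmem176a and Tmem176b. With a CD8 UMI, 7 adult and 15 young T cells held Trdc or Il17a, and all of them held Nkg7 and none held Cd163l1. Above the mitochondrial limit lay 4 adult cells, 3 of them with Cd163l1, and no young cell. With 5 or more mCherry_construct UMIs there was 1 adult cell and no young cell. At the limit of 1 Trdc UMI without Il17a stood 1 adult and 2 young cells, none with Cd163l1 or a gamma constant UMI.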

How the data were processed

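Single cells sorted for mCherry from pooled tumours were captured on the 10x Genomics platform (3' kit, v2), per the labels. The authors deposited raw UMI counts per gene and barcode, made with Cell Ranger 3.0.2 on mm10, per the submitters' processing notes. Annotation, strand setting and barcode filter: not given in the sources used here. Of 31054 features, 30934 (99.6%) were found in GENCODE M21, which gave GRCm38 positions. No doublet caller was run.

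Counts were summed per library over Trdc/Il17a T cells and over other T cells and tested with edgeR 4.0.16 (quasi-likelihood, TMM, terms for library and cell group) in R 4.3.3, on genes with at least 15 UMIs over the 4 sums. Genes used by the rule were left out, p-values were Benjamini-Hochberg adjusted, and the standard error is the log2 fold change divided by the square root of F. DESeq2 1.42.0 was an alternative. Intervals are 95% ones for counting error only, exact except for the ratio of shares, which uses a normal approximation of the log ratio. A fold against 0 uses 3 counts per library. Ratios of a single library had 0.5 counts added on the log2 scale. Other alternatives changed the limits on cells and genes.

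The cells, gene lists and tests were chosen with earlier results of these data known. By rule the text names the genes that chose the cells, the 10 called genes with the largest log2 fold change in each direction, any called gene of a list, and the 2 to 6 genes of each list with the most UMIs in Trdc/Il17a T cells. Genes named beyond that are marked as chosen after their values were seen. Some genes, 1 of them among the 14 called higher, are not reported here.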

Additional observations from a re-analysis of the deposited data

Results flagged for a closer look

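For 10 named genes the CPM ratio of Trdc/Il17a T cells over other T cells had a 95% counting interval above 1 in one library and below 1 in the other. The intervals cover counting error only and leave out the spread between cells. In the young library the 2 largest of 7 cells supplied 73.8% of the UMIs, so each young ratio leans on them. One of these cells held 517 of 657 Gzma and 110 of 166 Gzmb UMIs. The difference between libraries was not tested, since such a term would leave no residual degree of freedom. The values are log2 ratios of Trdc/Il17a T cells over other T cells, adult minus young, with 0.5 counts added. They were 2.09 for Lat, 2.76 for Cxcr6, 2.88 for Ltb, 3.57 for Tnf, 2.59 for Cd44, 3.48 for Maf and 2.08 for Nfkbia, where the ratio was above 1 in adult and below 1 in young. They were -9.86 for Gzma, -2.75 for Gzmb and -5.10 for Klrd1, where it was below 1 in adult and above 1 in young. The plain CPM ratios of Gzma were 0.0375 in adult and 40.7 in young, and those of Tnf were 3.40 and 0.255. Nkg7, Trbc1 and Cd247 also had ratios on opposite sides of 1, with an interval that included 1 in young (0.957 to 1.39, 0.822 to 1.54 and 0.359 to 1.98).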

How the results depend on the processing

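Against 14 genes higher and 11 lower, 22 and 33 were called with at least 2 CD3 UMIs, 29 and 36 without mCherry_construct UMIs, 27 and 35 with at most 1% myeloid UMIs, 23 and 34 with cells chosen by Trdc, 23 and 32 with no count minimum, 4 and 2 with DESeq2 and 8 and 3 without the library term. Cells chosen by Il17a gave 10 and 0 with edgeR (378 genes at an unadjusted p under 0.05). Lower genes numbered 29 with at most 5% mitochondrial UMIs, 22 after thinning, 30 against other T cells without CD8 and 21 with at least 50 UMIs. Chosen after seeing the data, a 0.3% myeloid limit gave 32 and 36, and cells of at most 10000 UMIs gave 26 and 40. The cause was not tested. The adult to young ratio of shares, 3.22, was 15.3 for cells chosen by Il17a and 1.81 to 4.88 in the other settings. Every setting kept cells with a CD8 UMI out of the Trdc/Il17a T cells. Klrb1c turned to -0.19 (log2) in the adult library alone and was 6.30 in the young library alone, beside 5.44 in the fit, and the other 24 called genes kept their side in each library that gave a value. The 7 young cells limit every value of that library. The fit pairs the cell groups within each library through its library term, and the ages have no pairing.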
